A study of Mus musculus with 8 samples.

Results

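The genes described here encode the machinery that sets how much of the translation initiation factor eIF2 is phosphorylated: the 4 eIF2α kinases Eif2ak1, Eif2ak2, Eif2ak3 and Eif2ak4, the kinase inhibitor Impact, the phosphatase subunits Ppp1r15a and Ppp1r15b, the eIF2 subunits Eif2s1 and Eif2s2, and Eif2b5 of the exchange factor eIF2B. They were taken by name, as the rows of the count table whose Ensembl ID carries any of these 10 symbols in GENCODE M21 (GRCm38, mouse). The 10 genes were proposed with earlier results of these data known, so the share called among them is not independent evidence. They are 10 of 21859 genes listed. All 10 had a row, 9 had counts, and 1, Eif2s2, was at 0 in every sample. The study used 1 cell line, PER-M60 (leukaemia cells from mouse): 4 samples had control medium and 4 had medium conditioned by osteoclasts, the cells that break down bone. The labels add no strain, genotype, further agent or time in the medium. They do not say whether replicates were separate cultures, so p-values measure the spread between these samples, which may be technical.

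eIF2 carries the initiator methionyl-tRNA to the ribosome and must be reloaded with GTP by eIF2B after each round of initiation. When a kinase phosphorylates the α subunit of eIF2, the factor blocks eIF2B instead, most protein synthesis falls, and a few mRNAs with upstream reading frames, that of the transcription factor ATF4 above all, are translated better. Each kinase answers a different stress: GCN2 (Eif2ak4) senses uncharged tRNA, PERK (Eif2ak3) misfolded protein in the endoplasmic reticulum, PKR (Eif2ak2) double-stranded RNA and HRI (Eif2ak1) lack of haem or mitochondrial stress. The kinases are controlled at the protein level, and RNA counts do not measure their activity or the phosphorylation of eIF2α.

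Total counts per sample ran from 15391754 to 21637966. Genes that mark B-lineage leukaemia cells were abundant, with 9 of 10 tested, Rag1 at 0 and a summed level of 4633 to 4683 normalised CPM (counts scaled per library to a common size) in control and 4847 to 4886 in osteoclast-conditioned medium. Of the 10 osteoclast markers, 7 stayed under 1 normalised CPM in every sample and Ocstamp and Dcstamp were at 0. The summed osteoclast list was 128 to 134 in control and 139 to 144 in conditioned medium, almost all of it from Acp5, Nfatc1 and Itgb3. These did not move together. Nfatc1 rose (log2 fold change 0.15, edgeR adjusted p = 0.000806) and Itgb3 fell (-0.25, edgeR adjusted p = 0.0185). Acp5 did not pass (0.08, edgeR adjusted p = 0.332), and Itgb3 lost its call in 3 of 17 alternative fits. The 6 macrophage markers summed to 6.38 to 7.19 and 7.46 to 9.22, with C1qa and Itgam at 0. Itgam shares 68.7% of its exon length with Gm49368 on the same strand, so its 0 may not show absence, and Rag1 overlaps B230118H07Rik. These sums moved with the medium, and their part in the results was not tested.

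Of the 9 eIF2 pathway genes with counts, all of which passed the filter on low counts, 5 changed between media. Ppp1r15a, Impact and Ppp1r15b rose in osteoclast-conditioned medium, and Eif2ak4 and Eif2s1 fell. The changes were small, the largest being the 1.25-fold rise of Ppp1r15a. Calls are adjusted p under 0.05 by Benjamini-Hochberg in edgeR's quasi-likelihood test over all 10729 tested genes, of which 30.5% were called, 15.7% higher and 14.8% lower. The groups did not overlap in the same 5 genes, against 28.2% of all tested genes. The median log2 fold change of the 9 genes was -0.02, and that of all tested genes -0.01. In bulk RNA, fewer cells of a type and less RNA per cell cannot be told apart.

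**Figure D1:**
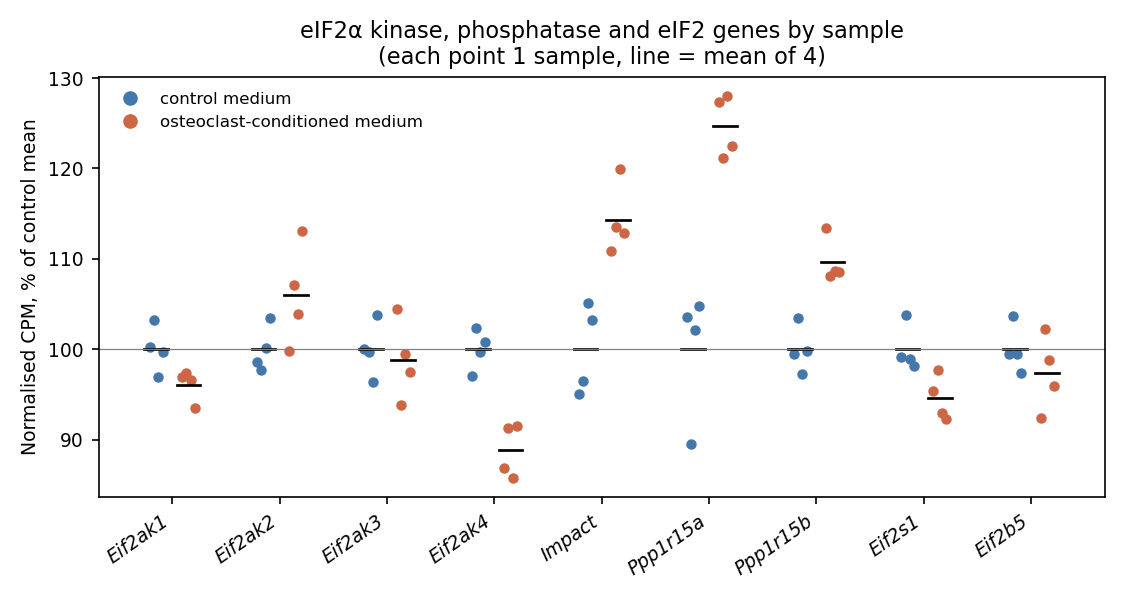
Normalised CPM of each gene in each sample, as a percentage of the mean of the 4 control samples (y axis). Blue points are control and orange points osteoclast-conditioned samples, and lines are group means. Ppp1r15a, Impact and Ppp1r15b lie above the control samples in all 4 conditioned samples, and Eif2ak4 and Eif2s1 lie below them.

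Eif2ak4 encodes GCN2, the kinase that is switched on when amino acids run short (ENSMUSG00000005102; chromosome 2, 118388618 to 118475234 in GRCm38, plus strand). It had 59.8, 63.1, 61.4 and 62.1 normalised CPM in control replicates 1 to 4 and 53.5, 56.2, 52.8 and 56.4 in conditioned replicates 1 to 4. Every conditioned sample was below every control sample. The mean fell from 61.6 ± 1.39 to 54.7 ± 1.84 (SD, n = 4 each). The log2 fold change was -0.17 (SE 0.04), with an adjusted p of 0.000965 from edgeR. It was the one kinase called. The call was kept in each alternative fit, with log2 fold changes from -0.19 to -0.16.

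PKR, HRI and PERK did not pass the test. Eif2ak2, the PKR gene, which interferon induces, had 67.5, 66.9, 68.6 and 70.8 normalised CPM in control and 68.3, 73.3, 71.1 and 77.4 in conditioned medium, so the groups overlapped and conditioned replicate 4 was the highest. Its log2 fold change was 0.08 (95% interval 0.00 to 0.16, edgeR adjusted p = 0.114). Without conditioned replicate 1 it was called, at 0.11 (edgeR adjusted p = 0.0460).

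Eif2ak1, the HRI gene, had 101, 104, 97.6 and 100 normalised CPM in control and 97.6, 98.1, 97.2 and 94.1 in conditioned medium, a log2 fold change of -0.06 (95% interval -0.13 to 0.01, edgeR adjusted p = 0.178). A share of 11.6% of its exon length lies within exons of Aimp2 or Ankrd61 on the opposite strand, where reads could not be assigned to 1 gene without strand. Eif2ak3, the PERK gene, had 50.6, 50.5, 48.7 and 52.5 in control and 52.9, 47.5, 50.3 and 49.3 in conditioned medium. Its interval, from -0.10 to 0.07 around a log2 fold change of -0.02, excludes a change of the size seen in Ppp1r15a in either direction (edgeR adjusted p = 0.804).

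Whether Eif2ak4 changed differently from the other kinases was tested on the ratio of counts within each sample, a comparison chosen after the values were seen. The log2 ratio of Eif2ak4 to Eif2ak2 fell from -0.15 ± 0.05 to -0.40 ± 0.05 (SD, n = 4 each), with no overlap between media. An exact permutation test (two-sided) returned p = 0.0286, the smallest that 4 against 4 allow, and 0.0857 adjusted over the 3 kinase ratios. The difference was -0.11 for the ratio to Eif2ak1 (exact p = 0.0571) and -0.15 for the ratio to Eif2ak3 (exact p = 0.0857), both 0.0857 after adjustment. All 3 ratios were lower in conditioned medium and 0 of 3 passed after adjustment, so Eif2ak4 was not shown to differ from the other kinases. With 1 sample left out, the ratio to Eif2ak2 passed without conditioned replicate 2 or 4, that to Eif2ak3 without conditioned replicate 2 and that to Eif2ak1 without conditioned replicate 4 (each exact permutation p = 0.0429 after adjustment).

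Impact binds GCN1, the protein that GCN2 needs for activation, and so restrains GCN2 (ENSMUSG00000024423; chromosome 18, 12955852 to 12992950 in GRCm38, plus strand). It had 29.7, 30.1, 32.8 and 32.2 normalised CPM in control and 34.6, 35.4, 37.4 and 35.2 in conditioned medium, without overlap. The mean rose from 31.2 ± 1.55 to 35.7 ± 1.22 (SD, n = 4 each). The log2 fold change was 0.20 (SE 0.05, edgeR adjusted p = 0.00291).

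The inhibitor therefore rose while its kinase fell. The log2 ratio of Impact to Eif2ak4 counts was -1.01, -1.07, -0.90 and -0.95 in control and -0.63, -0.67, -0.50 and -0.68 in conditioned medium. Its mean was higher by 0.36 in conditioned medium, a 1.29-fold shift of Impact relative to Eif2ak4 (two-sided exact permutation p = 0.0286, the smallest possible, and 0.0429 adjusted over the 3 ratios planned). All 4 conditioned samples lay above all 4 controls. That was fixed in advance, because the genes moved in opposite directions and neither overlapped between media. The permutation p therefore adds no support to the calls of the genes themselves. The ratios were planned with earlier results of these data known. Without conditioned replicate 3 the difference was 0.32 and the exact p again 0.0286. Its adjusted value there was 0.0857, because the exact p of the phosphatase subunit ratio in the same adjustment rose to 0.0571.

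Partners of the kinases changed in both directions. Of 13 listed, all were tested, 3 rose, 3 fell and 7 did not pass (46.2% called, against 30.5% of all tested genes), with a median log2 fold change of -0.06 against -0.01 over all tested genes. Hspa5, the chaperone that holds PERK inactive, fell most, from 778 ± 11.3 to 545 ± 14.1 normalised CPM (log2 fold change -0.51, SE 0.03, edgeR adjusted p = 1.87e-15). Dele1, which carries mitochondrial stress to HRI, rose from 82.6 ± 1.91 to 94.5 ± 0.268 (0.19, SE 0.03, edgeR adjusted p = 3.37e-05), and the protease Oma1, which cleaves the DELE1 protein, fell by 0.22 on the log2 scale (SE 0.08). Oma1 passed narrowly, at an edgeR adjusted p of 0.0488, with overlapping groups, and lost its call in 10 of 17 alternative fits.

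Hsp90aa1, a chaperone of HRI, fell by 0.13 (edgeR adjusted p = 0.000570). The remaining called partners, both named after their values were seen, were Gcn1 and Rplp0. Gcn1, the activator of GCN2 that Impact competes for, had 442 to 446 normalised CPM in control and 471 to 482 in conditioned medium (log2 fold change 0.10, SE 0.02, edgeR adjusted p = 0.00166). Rplp0, a ribosomal stalk protein that activates GCN2, had a log2 fold change of 0.10 with overlapping groups (edgeR adjusted p = 0.00363). Dnajc3, the PERK and PKR inhibitor p58IPK, did not pass, with 190 ± 3.92 against 182 ± 6.14 normalised CPM (edgeR adjusted p = 0.116).

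Genes tied to the stimuli of PKR and HRI were also listed. Of 18 interferon-stimulated genes, 11 were tested, 2 rose, 0 fell and 9 did not pass, so 18.2% were called, against 30.5% of all tested genes. The RNA sensor Ddx58 rose by 0.15 on the log2 scale (SE 0.05). The matched genes below the filter were Isg15, Ifit1, Ifit3, Oasl2 and Rsad2, with group means of 0.0728 to 0.276 normalised CPM, and Zbp1, with 0.169 to 0.369 in control and 0.407 to 0.700 in conditioned medium. Zbp1 was not tested. Its groups did not overlap after scaling, but its raw counts, 3 to 8 in control and 8 to 12 in conditioned medium, were low and met at 8. Ddx58 lost its call in 6 of 17 alternative fits.

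Of 11 genes of haem synthesis and breakdown, 2 rose, 2 fell and 7 did not pass, so 36.4% were called, against the same 30.5%. Hmox1, the haem-degrading oxygenase, rose from 4.02 ± 0.295 to 6.46 ± 0.277 normalised CPM (log2 fold change 0.67, SE 0.11, edgeR adjusted p = 1.61e-05), and its repressor Bach1 had a log2 fold change of 0.12 (edgeR adjusted p = 0.0490). Bach1 lost its call in 12 of 17 alternative fits. The haem synthesis enzyme Ppox fell by 0.46 on the log2 scale (SE 0.09). Ppox shares 17.5% of its exon length with B4galt3 on the opposite strand.

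Both phosphatase subunits rose. Ppp1r15a encodes GADD34, the stress-induced subunit that brings protein phosphatase 1 (PP1) to eIF2α and reverses its phosphorylation (ENSMUSG00000040435; chromosome 7, 45522916 to 45526268 in GRCm38, minus strand). Ppp1r15b encodes CReP, the subunit that does the same in unstressed cells (ENSMUSG00000046062; chromosome 1, 133131143 to 133139783, plus strand).

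Ppp1r15a had 17.5, 15.1, 17.2 and 17.7 normalised CPM in control and 21.5, 20.4, 21.6 and 20.7 in conditioned medium. The groups did not overlap, and control replicate 2 was the lowest sample. The mean rose from 16.9 ± 1.20 to 21.03 ± 0.581 (SD, n = 4 each). The log2 fold change was 0.33 (SE 0.06, 95% interval 0.20 to 0.46, edgeR adjusted p = 0.000192). Leaving out control replicate 2 gave 0.27.

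Ppp1r15b had 297, 309, 291 and 299 normalised CPM in control and 339, 323, 325 and 325 in conditioned medium. All conditioned samples were above all controls, and conditioned replicate 1 stood above the other conditioned samples. The mean rose from 299 ± 7.70 to 328 ± 7.39 (SD, n = 4 each). The log2 fold change was 0.13 (SE 0.03, edgeR adjusted p = 0.000357).

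The balance of the subunits shifted towards the stress-induced one. The log2 ratio of Ppp1r15a to Ppp1r15b counts was -4.09, -4.36, -4.08 and -4.08 in control and -3.98, -3.98, -3.91 and -3.97 in conditioned medium. The mean was higher by 0.19 in conditioned medium, without overlap (two-sided exact permutation p = 0.0286, the smallest possible, and 0.0429 adjusted over the 3 ratios planned). Without control replicate 2 the difference was 0.12, with the same exact p. Without conditioned replicate 3 it was 0.17, with an exact p of 0.0571, or 0.0857 adjusted.

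**Figure D2:**
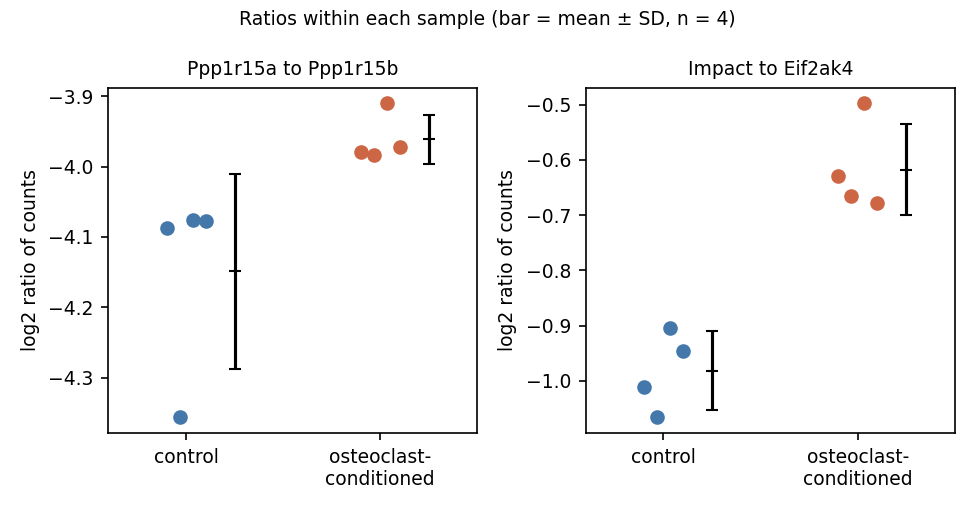
Log2 ratio of counts within each sample (y axis) for Ppp1r15a to Ppp1r15b (left) and Impact to Eif2ak4 (right), with the mean ± SD of 4 samples beside the points. Both ratios are higher in all 4 osteoclast-conditioned samples, and control replicate 2 lies apart at -4.36 on the left.

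The promoter of Ppp1r15a is shown because this gene had the largest change and its start site carries a palindromic cAMP response element (CRE), a site that factors of the CREB and ATF families can bind. The sequence is that of RefSeq on GRCm38.p6, chr7:45526269-45526518, minus strand, the 250 bases before the start site, with the CRE palindrome TGACGTCA in capitals.
Ppp1r15a: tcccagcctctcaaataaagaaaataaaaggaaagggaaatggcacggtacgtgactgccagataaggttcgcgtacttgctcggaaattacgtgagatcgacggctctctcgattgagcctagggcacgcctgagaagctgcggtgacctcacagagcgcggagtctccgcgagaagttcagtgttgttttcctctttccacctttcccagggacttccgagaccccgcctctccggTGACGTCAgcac

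The palindrome lies from base -12 to base -5 relative to the start. RefSeq promoter windows (250 bases before to 50 after a start) were found for 8 of the 10 genes, and Ppp1r15a was the 1 of 8 with the palindrome, which occurs in 1.79% of all 32851 windows and in 2.03% of the 27025 genes that have one. The core of the amino acid response element that ATF4 binds together with C/EBP proteins, TGATGNAA on either strand, was in 0 of the 8, in 3.97% of all windows and in 4.51% of genes. The core of the interferon response element, GAAANNGAAA on either strand, was in those of Eif2ak2, Eif2s1 and Ppp1r15a, in 3.44% of all windows and in 3.99% of genes. No matches of different motifs overlapped. Such matches describe the letters and do not show that a factor binds there.

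Genes of the other PP1 subunits went in both directions. Of 8 listed, 1 rose, 2 fell and 5 did not pass (37.5% called, against 30.5% of all tested genes), with a median log2 fold change of 0.01. Ppp1r10, a nuclear targeting subunit, rose by 0.20 (SE 0.04, edgeR adjusted p = 0.000159). The catalytic subunit Ppp1cc and the regulator Ppp1r7 fell by 0.07 and 0.09, and both lost their calls in some alternative fits (9 and 7 of 17).

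Eif2s1 encodes eIF2α, the subunit that carries the phosphorylated serine (ENSMUSG00000021116; chromosome 12, 78861819 to 78887010 in GRCm38, plus strand). It had 203, 213, 203 and 201 normalised CPM in control and 195, 200, 190 and 189 in conditioned medium. The groups did not overlap, but the highest conditioned and the lowest control sample were adjacent, at 200.3 and 201. The mean fell from 205 ± 5.25 to 194 ± 5.10 (SD, n = 4 each). The log2 fold change was -0.08 (SE 0.03, edgeR adjusted p = 0.0327). The call was lost with DESeq2 (adjusted p = 0.0519) and without control replicate 1 or 2 or conditioned replicate 1, 3 or 4 (edgeR adjusted p = 0.0602 to 0.110).

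Eif2s2, the β subunit gene (ENSMUSG00000074656; chromosome 2, 154871410 to 154892935 in GRCm38, minus strand), was listed at 0 in all 8 samples, where 3 counts would be 0.138 to 0.194 normalised CPM. Its whole span lies inside the span of the gene a (nonagouti), on the opposite strand, and the 2 share no exon. Of 502 listed genes placed like this, 501 (99.8%) were at 0 in all samples, against 31.1% of the 17163 genes that overlap no other. The count of Eif2s2 therefore gives no measure of its expression, and its planned ratio to Eif2s1 has no value.

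The γ subunit gene Eif2s3x, named for comparison after its values were seen, had 181 ± 8.20 normalised CPM in control and 179 ± 4.22 in conditioned medium (log2 fold change -0.02, edgeR adjusted p = 0.705), and Eif2s3y, its Y-linked copy, was at 0. Eif2b5 encodes the catalytic ε subunit of eIF2B (ENSMUSG00000003235; chromosome 16, 20498817 to 20509323 in GRCm38, plus strand). It had 140.1, 146, 140.2 and 137 normalised CPM in control and 130.2, 144, 139 and 135 in conditioned medium. The groups overlapped, and the log2 fold change was -0.04 (95% interval -0.11 to 0.03, edgeR adjusted p = 0.372).

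**Figure D3:**
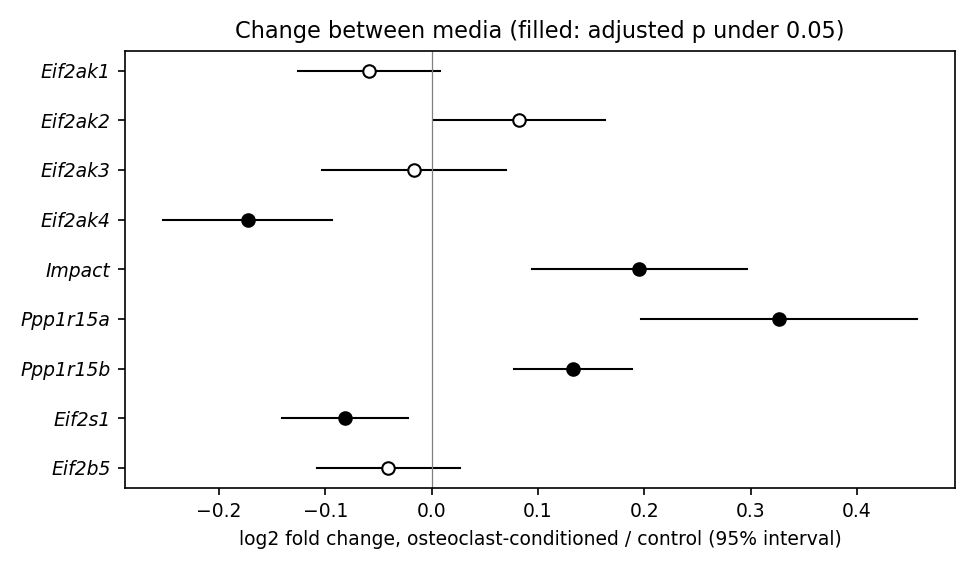
Log2 fold change of each tested gene, osteoclast-conditioned over control (x axis), with its 95% interval. Filled points have an adjusted p under 0.05: Eif2ak4 and Eif2s1 lie below 0 and Impact, Ppp1r15a and Ppp1r15b above it.

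Of the 15 other eIF2, eIF2B and start codon factors listed, 14 were tested, 1 rose, 5 fell and 8 did not pass, with a median log2 fold change of -0.05 against -0.01 over all tested genes. The share called was 42.9% against 30.5%. Mcts1, which works with DENR in ribosome recycling and reinitiation, fell most, from 27.3 ± 2.75 to 19.95 ± 1.75 normalised CPM (log2 fold change -0.45, SE 0.07, edgeR adjusted p = 3.55e-05). Eif1, the factor that guards start codon choice, was the one that rose, from 176 ± 5.72 to 197 ± 3.58 (0.17, SE 0.03, edgeR adjusted p = 6.38e-05). Eif1ax fell by 0.14 (SE 0.03), and Eif2b4, the δ subunit of eIF2B, by 0.13 (SE 0.04, edgeR adjusted p = 0.0224). Eif2b4 shares 7.85% of its exon length with Snx17 on the opposite strand and lost its call in 5 of 17 alternative fits.

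ATF4 acts downstream of eIF2α phosphorylation and drives genes of amino acid supply and stress. Of 16 listed, 14 were tested, 13 rose and 0 fell (92.9% called, against 30.5% of all tested genes and 15.7% higher), with log2 fold changes from 0.03 to 2.46 and a median of 0.89. Psat1, of serine synthesis, passed narrowly (0.08, edgeR adjusted p = 0.0482) and lost its call in 11 of 17 alternative fits. The list was assembled with earlier results of these data known, so neither its direction nor its size is independent evidence. Trib3, a pseudokinase that restrains ATF4, had 13.5 to 16.5 normalised CPM in control and 44.6 to 48.9 in conditioned medium (log2 fold change 1.58, SE 0.06, edgeR adjusted p = 5.38e-19). The stress protein gene Nupr1 rose by 1.20 (SE 0.08) and the transcription factor gene Atf5 by 1.02 (SE 0.05). Cebpb, whose protein pairs with ATF4, rose by 2.46 (SE 0.30) but from 0.340 ± 0.119 normalised CPM, and 20.7% of its exon length is shared with Tmem189 on the opposite strand.

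Atf4 itself rose less than most genes of the list, from 370 ± 15.6 to 432 ± 7.68 normalised CPM (log2 fold change 0.23, SE 0.03, edgeR adjusted p = 3.04e-07). Ddit4 was the tested gene of the list that did not pass (0.03, edgeR adjusted p = 0.647), Slc7a11 was at 0, and Ddit3 was not analysed here. Ppp1r15a, at 0.33, lay between Cebpg (0.27) and Asns (0.49) among these genes. In this list, the genes other than Cebpb, Trib3, Nupr1 and Atf5 were named after their values were seen.

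**Figure D4:**
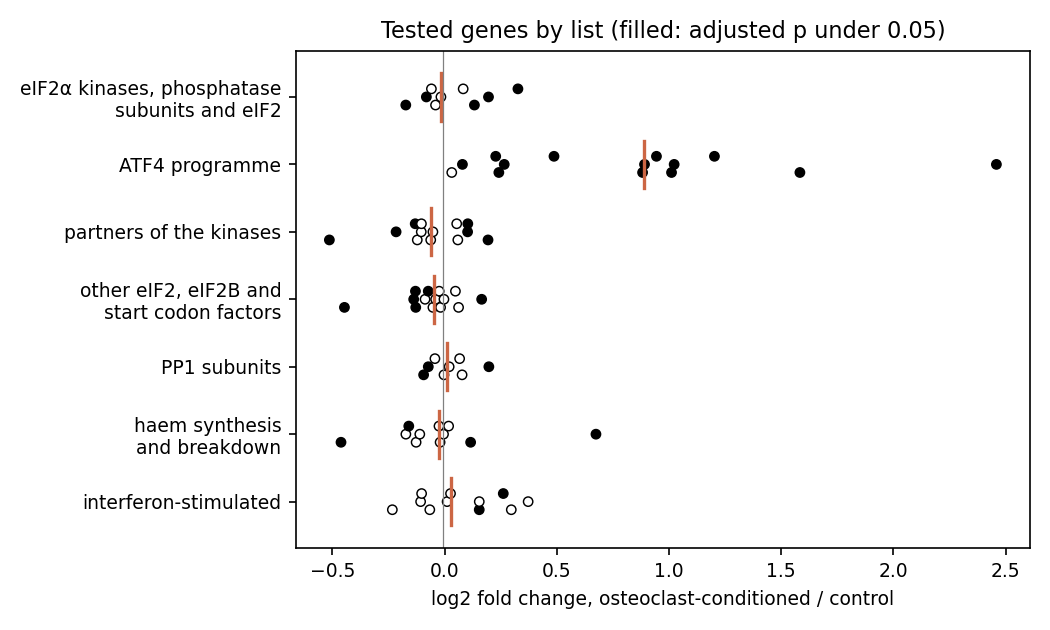
Log2 fold change, osteoclast-conditioned over control (x axis), of each tested gene in the lists named on the y axis. Filled points have an adjusted p under 0.05, orange bars are list medians and the grey line is the median of all tested genes. The ATF4 programme is centred at 0.89, while the eIF2α kinases, phosphatase subunits and eIF2 lie between -0.17 and 0.33.

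Stretches of 5 promoters of this list are shown because they hold the amino acid response element core, which was found in 0 of the 8 kinase, phosphatase and eIF2 gene windows. They are RefSeq sequences on GRCm38.p6, read along the gene's strand before the start site, with the core in capitals (TTGCATCA is its reverse complement). Their positions are chr1:191183425-191183454 (Atf3, minus strand), chr2:119351038-119351067 (Chac1, plus strand), chr6:7693214-7693243 (Asns, minus strand), chr7:126625562-126625591 (Nupr1, minus strand) and chr19:27216809-27216838 (Vldlr, plus strand).
Atf3: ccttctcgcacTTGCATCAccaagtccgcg
Chac1: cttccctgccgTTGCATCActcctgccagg
Asns: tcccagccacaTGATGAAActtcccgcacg
Nupr1: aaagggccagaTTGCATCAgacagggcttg
Vldlr: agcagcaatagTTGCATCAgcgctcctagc

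The core was in the windows of 7 of the 16 ATF4 programme genes, and the other two were Trib3, where it lies after the start site, and Slc7a11. The expressed genes shown rose by 0.88 (Atf3), 0.89 (Chac1), 0.49 (Asns), 1.20 (Nupr1) and 0.94 (Vldlr) on the log2 scale, all called by edgeR. Atf5, Sesn2 and Cebpb, with no match in these windows, had log2 fold changes of 1.02, 1.01 and 2.46. The other tested genes without a match had 0.27 (Cebpg), 0.24 (Phgdh), 0.23 (Atf4), 0.08 (Psat1) and 0.03 (Ddit4), all below the 0.49 of Asns, the lowest among the tested genes with a match.

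Levels were compared between genes as normalised CPM per kilobase of exon. In control medium Eif2b5 (54.3 ± 1.43) and Ppp1r15b (53.5 ± 1.38) were the highest, with overlapping samples, followed by Eif2s1 (41.4 ± 1.06, SD, n = 4 each). The kinases were lower, in the order Eif2ak1 (17.8 ± 0.461), Eif2ak2 (13.4 ± 0.338), Eif2ak3 (8.40 ± 0.257) and Eif2ak4 (8.26 ± 0.186). Eif2ak3 and Eif2ak4 overlapped in control medium. In conditioned medium they did not, at 7.88 to 8.77 per kilobase for Eif2ak3 and 7.08 to 7.57 for Eif2ak4.

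Impact (6.08 ± 0.302) and Ppp1r15a (5.74 ± 0.408) were the lowest in control medium and overlapped there. In conditioned medium Ppp1r15a (7.16 ± 0.198) and Impact (6.96 ± 0.238) overlapped each other. Ppp1r15b was still the far more abundant phosphatase subunit, at 58.6 ± 1.32 per kilobase. These levels depend on the length used: with the longest transcript, Eif2s1 moved to 60.2 and became the highest, and Eif2ak4 (11.6) passed Eif2ak3 (11.2). Whether reads in introns were counted is not given in the sources used here and was not tested, which limits any level per length. Of 502 genes inside the span of another listed gene without a shared exon, 501 were at 0. Exon length may therefore not be the length counted, and the shares of overlap given above cover exons only.

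**Figure D5:**
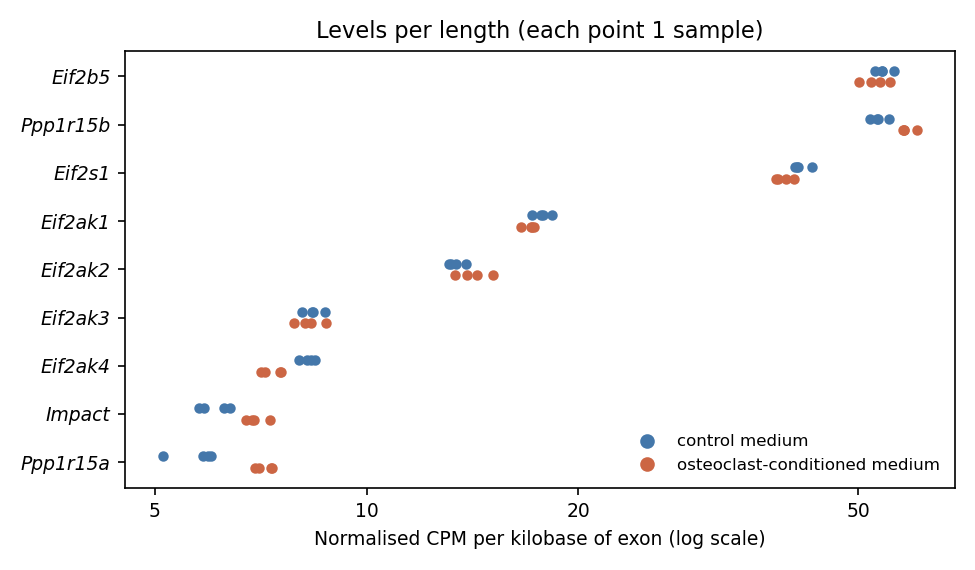
Normalised CPM per kilobase of exon (x axis, log scale) of the 9 genes with counts, ordered by their control mean, with 1 point for each sample. Eif2b5, Ppp1r15b and Eif2s1 lie to the right of all kinase samples, and Impact and Ppp1r15a have the lowest control means (6.08 and 5.74).

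The genes with the profile nearest to Ppp1r15a over the 8 samples, by Euclidean distance of centred log2 normalised CPM among 9032 tested genes with a mean of at least 5, were Sec22c (distance 0.12), Golgb1 (0.13) and Tet3 (0.13). Their log2 fold changes were 0.30, 0.29 and 0.25. Near to Ppp1r15b were Pik3ca and Cdipt, each at a distance of 0.05, with log2 fold changes of 0.12 and 0.12. These 5 were called higher by edgeR, and Cdipt lost its call in 2 of 17 alternative fits. Their similar changes follow from how they were picked and are no separate result.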

How the data were processed

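RNA was measured in 8 samples of PER-M60. Per the labels, RNA was purified with RNeasy Plus Mini and sequenced as SureSelect HS2 libraries. The submitters' processing notes name mm10, STAR 2.7.5a and featureCounts 2.0.1; annotation, strand and molecular barcodes are not given in the sources used here. The authors deposited raw whole-number counts per Ensembl gene, in 1 table, with 0 unmatched columns. Titles gave groups and replicate numbers.

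Names, positions and exon lengths came from GENCODE M21, which matched 21817 of 21859 IDs, and promoters from RefSeq. Counts were filtered with filterByExpr, scaled by TMM and tested with edgeR 4.0.16 in R 4.3.3 (glmQLFit, robust, medium as the term; glmQLFTest), adjusted by Benjamini-Hochberg over all tested genes. SE is the absolute log2 change over the square root of F, and intervals (95%) use its degrees of freedom. Floors (3 counts) cover counting error only. Ratios used a prior count of 0.5 and exact permutation. The fit was tested on simulated data.

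All 10 genes were named whatever their result, with up to 4 called genes of largest change per list and the 3 nearest profiles of the 2 genes of smallest p. Some genes that this rule names are not reported here. Genes, lists, motifs and rules were chosen with earlier results of these data known. Alternatives were other scalings and filters, DESeq2 1.42.0, limma-voom (limma 3.58.1), no robust estimation, the replicate block, adjusted p under 0.01, each replicate left out, another prior count and another length. Chi-square per degree of freedom was at least 1.38 between samples, so no 2 files agreed within counting noise and none were merged. Within control, pairs with replicate 2 had 3.38 to 5.28 and the others 1.78 to 2.50. Within conditioned medium, pairs with replicate 4 had 2.61 to 2.84 and the others 1.38 to 1.58. Figures used matplotlib 3.10.9.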

Additional observations from a re-analysis of the deposited data

Results flagged for a closer look

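In each group of 4 samples, the highest or lowest value was compared with the other 3 for each of the 9 genes and 5 ratios. Of 28 groups, 3 had a sample whose gap to its nearest neighbour was over 0.829 of the group's range (Dixon's 95% limit), where chance gives about 1.4. Ppp1r15b in osteoclast-conditioned replicate 1 was 339 normalised CPM, with the others at 323 to 325. The log2 ratio of Ppp1r15a to Ppp1r15b in control replicate 2 was -4.36, with the others at -4.09 to -4.08. The same ratio in osteoclast-conditioned replicate 3 was -3.91, with the others at -3.98 to -3.97. The cause was not tested in any of these cases.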

How the results depend on the processing

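Eif2ak4, Impact, Ppp1r15a and Ppp1r15b kept their direction and call in all 18 alternatives each, and Eif2s1 kept its direction in 18 and its call in 11. The number of eIF2 pathway genes called lower moved from 2 to 1 with DESeq2 and to 1 at an adjusted p under 0.01, and was 1 to 2 when 1 sample was left out. Eif2ak3, never called, had a log2 fold change of 0.01 without control replicate 4 and of 0.01 without osteoclast-conditioned replicate 2. Over all genes, 3273 were called, 2147 at an adjusted p under 0.01 (948 lower), and 2635 to 3578 when 1 sample was left out. Scaling by total counts called 40.7% of its calls higher, against 51.6%, and moved the median of all genes from -0.01 to -0.03.

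Replicate numbers are shared between media, but deviations of same-numbered samples correlated from -0.05 to 0.14 and 3 of 8 samples correlated best with their own number, so the numbers were not taken as pairs. With the replicate block, 3446 genes and the same 5 pathway genes were called. The sign-flip test of paired ratios could not go below 0.125 with 4 pairs. Ratios kept their sign in every alternative, and leaving out 1 sample gave 0.12 to 0.21 for Ppp1r15a to Ppp1r15b and 0.32 to 0.39 for Impact to Eif2ak4. Both kept their calls except without osteoclast-conditioned replicate 3 (0.17 and 0.32, adjusted exact p = 0.0857 each). There the exact p of Ppp1r15a to Ppp1r15b was 0.0571, while that of Impact to Eif2ak4 stayed at 0.0286 and lost its call through the shared adjustment. The 3 kinase ratios, added after seeing the data, were -0.141 to -0.094 for Eif2ak4 to Eif2ak1, -0.27 to -0.23 to Eif2ak2 and -0.19 to -0.11 to Eif2ak3 with 1 sample left out, and passed only in the cases named with them. The ratio of Eif2s1 to Eif2s2 gave no value.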
